A study of Rattus norvegicus with 24 samples.

Results

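The genes described here move cholesterol out of cells or sense it: Abca1, Abcg5, Abcg8, Nr1h3 and Lcat. They were taken by name, and the platform annotation gives them 8 probe sets of their own, 4 for Abca1 and 1 for each of the other genes, out of 31042 probe sets tested. The cells were primary rat hepatocytes held in a collagen sandwich culture and given a piperazine designer drug for 24 h, 1 of 4. These were 625 µM BZP (benzylpiperazine), 35 µM TFMPP (trifluoromethylphenylpiperazine), 522 µM MeOPP (methoxyphenylpiperazine) and 467 µM MDBP (methylenedioxybenzylpiperazine). Each concentration is labelled the EC20 of that drug. The piperazine ring bears a benzyl group in BZP and MDBP and a phenyl group in TFMPP and MeOPP. Each drug has 3 treated arrays, and every treated array has its own control with 0.1% DMSO, named in that control's title. This gives 8 groups of 3 arrays and 12 pairs. Strain, sex and the animals behind the samples are not given in the sources used here, and a p-value here weighs only how much these arrays vary, a variation that may be technical.

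Cholesterol leaves a hepatocyte by several routes. ABCA1 loads cholesterol and phospholipid onto lipid-poor apolipoprotein A-I at the cell surface and so starts HDL particles, and LCAT, which the liver secretes, esterifies cholesterol on those particles. ABCG5 and ABCG8 work only as a pair, as a heterodimer in the canalicular membrane that exports cholesterol and plant sterols into bile. Nr1h3 encodes LXR alpha, a nuclear receptor that oxysterols activate and that binds DNA with RXR. Abca1, Abcg5 and Abcg8 are textbook LXR targets.

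All 5 genes had a promoter entry in the RefSeq table (build GRCr8). Abcg5 and Abcg8 lie head to head with 205 bases between their annotated starts, so a single stretch serves as the upstream region of both. It is shown because both genes fell in the mean of the drugs. Beside it are the 250 bases before the starts of Abca1, which rose in 2 of its 4 probe sets, and Lcat, which fell most. Sequences run 5′ to 3′. Capitals mark matches on either strand. The E box was searched as CACGTG. The TATA box was searched as TATAAA. The GATA box was searched as AGATAA. The CCAAT box carries its letters in its name. The Abcg5 and Abcg8 stretch is chr6:15717731-15717935, written on the plus strand so that it ends at the Abcg5 start. The Abca1 region is chr5:72596474-72596723 and the Lcat region chr19:50748065-50748314, both on the minus strand.
Abcg5 and Abcg8: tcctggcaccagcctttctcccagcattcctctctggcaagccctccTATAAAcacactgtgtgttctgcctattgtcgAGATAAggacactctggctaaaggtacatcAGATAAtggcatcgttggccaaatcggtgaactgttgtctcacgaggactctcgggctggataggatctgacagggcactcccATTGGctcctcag
Abca1: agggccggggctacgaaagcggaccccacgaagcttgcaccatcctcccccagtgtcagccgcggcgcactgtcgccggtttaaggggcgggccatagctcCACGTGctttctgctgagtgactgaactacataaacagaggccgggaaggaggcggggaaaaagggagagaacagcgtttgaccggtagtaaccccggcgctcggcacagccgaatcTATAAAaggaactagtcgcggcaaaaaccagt
Lcat: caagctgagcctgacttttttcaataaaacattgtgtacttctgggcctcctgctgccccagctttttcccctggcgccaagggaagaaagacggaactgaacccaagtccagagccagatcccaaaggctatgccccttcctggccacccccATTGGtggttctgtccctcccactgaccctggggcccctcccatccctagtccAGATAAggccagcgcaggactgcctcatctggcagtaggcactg

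The stretch between Abcg5 and Abcg8 held GATA boxes at 126 and 96 bases before the Abcg5 start, and 8.35% of all 33469 promoters hold at least 1 in a window of that length. Its TATA box match lay at 158 bases and its CCAAT box, on the other strand, at 13 bases before the Abcg5 start (10.7% and 29.7% of promoters). Abca1 had a TATA box at 32 bases and an E box at 149 bases before its start, matches that 12.9% and 5.59% of promoters of 250 bases hold. Lcat had a GATA box at 44 bases and a CCAAT box on the other strand at 97 bases (10.3% and 34% of promoters). The LXR element in its consensus letters (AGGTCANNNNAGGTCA, both strands) had no match in these windows and occurred in 0.00299% of promoters of 250 bases. Its half-site (AGGTCA) had none either and occurred in 14.1%. A match describes letters and is not a site shown to be used. Only these exact letters were searched, and the full LXR element in this form is very rare. Elements with other letters would be missed, so the lack of a match does not show that a window has none.

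Array medians lay between 4.45 and 4.52 on the log2 scale, and all values between 1.43 and 14.10. The 6 hepatocyte markers with a probe set, among them Alb, averaged 10.45 to 14.06. The DMSO arrays were clustered by their correlations and the tree was cut into 5 sets, called preparations here. That number was set by hand and is not a result of the clustering. The sets are inferred from the values and no label names them. Pearson correlations of the controls were 0.9943 or more inside a set and 0.9919 or less across sets. Number 1 took in pair 1 of every drug and number 2 took in pair 2 of every drug but MDBP, whose own pair 2 formed number 5. Pair 3 was split, with BZP and MDBP in number 3 and the phenyl drugs in number 4. The 4 arrays of preparation 3 stood apart in several of the genes below, so the test of the mean over the drugs is also given without them.

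In the mean of the 4 drugs, Lcat fell 1.99-fold, Abcg5 1.52-fold, Abcg8 1.26-fold and Nr1h3 1.22-fold, and Abca1 rose in 2 of its 4 probe sets. Of the 8 probe sets, 2 were higher and 4 lower at an adjusted p under 0.05 (limma with Benjamini-Hochberg adjustment over all probe sets). Over all probe sets 12.5% were higher and 9.85% lower. The median difference over the 8 was -0.09, against 0.00 over all probe sets. Without the pair terms Abcg5 and Lcat still passed (limma adjusted p = 0.00811 and 0.0199), while Abca1 1383355_at, Abca1 1384381_at, Abcg8 and Nr1h3 did not (adjusted p = 0.215, 0.323, 0.104 and 0.406). With preparation 3 left out all 6 still passed, with Abcg8 at -0.26 (adjusted p = 0.00455) and Nr1h3 at -0.23 (adjusted p = 0.0165). The main fit takes the 12 pairs as independent, although they fall in 5 inferred preparations. Fitted with 1 value per inferred preparation, the same 6 of the 8 probe sets passed. The 12 treated and 12 control arrays overlapped in each of the 8 probe sets, and over all probe sets 0.264% did not overlap. For the 3 treated and 3 control arrays of a single drug no such share was taken. Overlap or its lack by drug, given below, therefore only describes the levels.

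**Figure D1:**
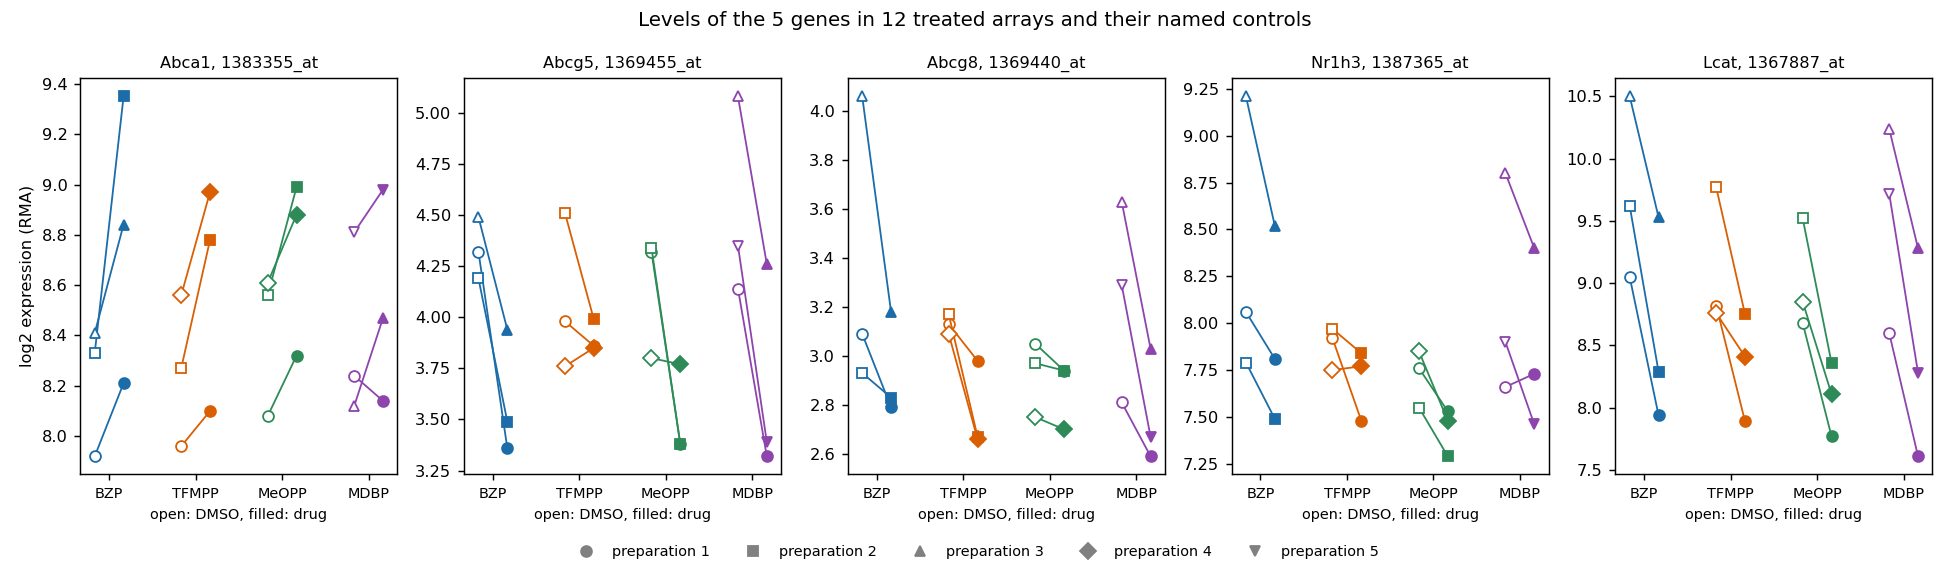
Log2 expression of the 5 genes (1383355_at for Abca1) in each DMSO control (open) and its treated array (filled), joined by a line, by drug, with the marker giving the inferred preparation. Lcat and Abcg8 were lower in the treated array of all 12 pairs, and Abca1 was higher in 11.

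ABCA1 is the efflux pump of the basolateral surface. Its probe set with the highest mean, 1383355_at, read 7.92, 8.33 and 8.41 in the controls of BZP and 8.21, 9.35 and 8.84 in the BZP arrays of the same pairs (log2 levels, pairs 1 to 3). With TFMPP it read 7.96, 8.27 and 8.56 in controls and 8.10, 8.78 and 8.97 in treated arrays. Both drugs gave a higher level in each of their 3 pairs, while the groups overlapped. With MeOPP it read 8.08, 8.56 and 8.61 in controls and 8.32, 8.99 and 8.88 in treated arrays. With MDBP the controls read 8.24, 8.81 and 8.12 and the treated arrays 8.14, 8.98 and 8.47. The first MDBP pair was the sole pair in which this probe set was lower with drug.

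The mean over the drugs was 0.35 ± 0.06 on the log2 scale (treated minus control, SE, n = 12 pairs; 1.27-fold; adjusted p = 0.000876). BZP gave 0.58 ± 0.13 (limma adjusted p = 0.00943), TFMPP 0.35 ± 0.13 (adjusted p = 0.252), MeOPP 0.31 ± 0.13 (adjusted p = 0.204) and MDBP 0.14 ± 0.13 (adjusted p = 0.621), each over 3 pairs. Only the BZP rise passed the test, and without the second BZP pair it was 0.36 with an adjusted p of 0.116. Fitted on the 6 BZP arrays alone it had an adjusted p of 0.0976. Preparation means ran from 0.14 in preparation 1 to 0.66 in preparation 2.

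The other probe sets of Abca1 gave a mixed answer. Probe set 1384381_at was higher in 12 of 12 pairs, by 0.09 to 0.97, and rose by 0.33 ± 0.07 in the mean (adjusted p = 0.00284). It passed with none of the drugs alone: BZP gave 0.40, TFMPP 0.39, MeOPP 0.32 and MDBP 0.21 (limma adjusted p = 0.0938, 0.252, 0.248 and 0.467). Fitted on the 6 TFMPP arrays alone, the TFMPP value passed (adjusted p = 0.0361). The BZP value was 0.12 without pair 2 of BZP and the MDBP value 0.09 without pair 3 of MDBP. Probe set 1382431_at stood at 0.10 ± 0.08 (adjusted p = 0.456, 7 of 12 pairs higher) and 1394490_at at 0.14 ± 0.08 (adjusted p = 0.267, 8 of 12 pairs higher). Their 95% intervals, -0.07 to 0.27 and -0.03 to 0.32, overlap those of the probe sets that passed, 0.21 to 0.48 and 0.18 to 0.48. With BZP, 1394490_at stood at 0.53 ± 0.17 (limma adjusted p = 0.0624). It passed in 3 of 21 alternatives (0.72 with adjusted p = 0.0325 without pair 1 of BZP, adjusted p = 0.0419 without pair 2 of MeOPP and 0.0449 with the filter on low values), and without pair 2 of BZP it stood at 0.24.

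The probe sets that did not pass are also the ones in which preparation 3 stood apart. In 1382431_at the 4 arrays of preparation 3 read 5.80 to 6.47 and the other 20 arrays 7.76 to 8.97. In 1394490_at they read 3.87 to 4.32 against 5.32 to 6.71. The gap between the means was -2.22 and -1.84 on the log2 scale, in control and treated arrays alike. In 1383355_at and 1384381_at the same arrays read 8.12 to 8.84 and 5.59 to 6.08, inside the range of the others (7.92 to 9.35 and 5.30 to 6.88). Over all probe sets, 331 (1.07%) had all 4 arrays of preparation 3 below the other 20 with means at least 1 log2 unit apart. With preparation 3 left out, which was chosen after the data were seen, the mean difference of 1382431_at was 0.09 (adjusted p = 0.330) and that of 1394490_at 0.19 (adjusted p = 0.194), so neither passed without it.

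**Figure D2:**
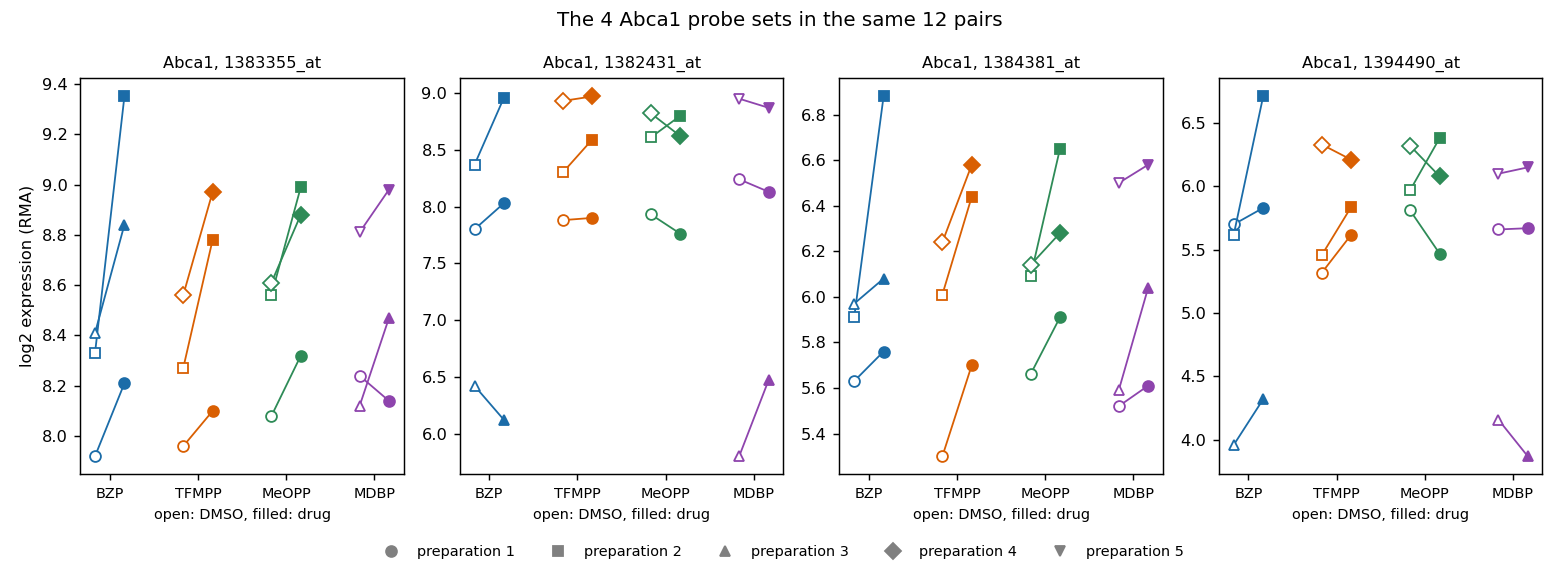
Log2 expression of the 4 Abca1 probe sets in the same 12 pairs, with open markers for DMSO, filled markers for drug and marker shape for the inferred preparation. In 1382431_at and 1394490_at the triangles of preparation 3 lie below the other 20 arrays, and in 1383355_at and 1384381_at they do not.

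Macrophages also carry Abca1, so their markers are given beside it. Of 7 Kupffer cell and macrophage markers with a probe set, 5 fell in the mean of the drugs and Cd68, a lysosomal protein of macrophages, rose. Over all probe sets 9.85% were lower and 12.5% higher. With BZP 2 of the 7 rose, Cd68 by 0.61 and Cd163 by 0.59 (limma adjusted p = 0.0253 and 0.0104). With that drug 0 fell and 5 did not pass, where 4.75% of all probe sets were higher and 4.48% lower. The summed level of the 7 markers, added on the linear scale, was 140 to 481 in controls and 127 to 404 in treated arrays. It was higher with drug in 5 of 12 pairs. Among the defining genes Clec4f, the Kupffer cell lectin, changed by -0.48 ± 0.08 (limma adjusted p = 0.000274) and Cd68 by 0.45 ± 0.08 (adjusted p = 0.000607). The array gives no true zero, and 2 of the 7 averaged below the median of all probe sets. In such a bulk sample fewer cells of a type and less RNA per cell cannot be told apart. Their part in the Abca1 result was not tested.

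ABCG5 is a subunit of the biliary sterol pump. Its probe set, 1369455_at, averaged 3.97, below the median of all probe sets (4.48), so its signal was weak. With BZP it read 4.32, 4.19 and 4.49 in controls and 3.36, 3.49 and 3.94 in treated arrays, and with MDBP 4.14, 4.35 and 5.08 against 3.32, 3.39 and 4.26. The BZP groups did not overlap, and each of these 6 pairs was lower with drug by 0.55 to 0.96. With TFMPP the controls read 3.98, 4.51 and 3.76 and the treated arrays 3.86, 3.99 and 3.85, which overlap, and the third pair was 0.09 higher with drug. With MeOPP the controls read 4.32, 4.34 and 3.80 and the treated arrays 3.38, 3.38 and 3.77, so that the groups did not overlap, although the third pair differed by -0.02 alone.

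Abcg5 fell by 0.61 ± 0.08 on the log2 scale in the mean of the drugs (SE, n = 12 pairs; limma adjusted p = 2.74e-05; lower in 11 of 12 pairs). It fell with MDBP (-0.87 ± 0.16, adjusted p = 0.00265), BZP (-0.74 ± 0.16, adjusted p = 0.00659) and MeOPP (-0.64 ± 0.16, adjusted p = 0.0215), and stood at -0.18 ± 0.16 with TFMPP (adjusted p = 0.777). The MeOPP call was lost without its first or its second pair (-0.49 and -0.48, adjusted p = 0.218 and 0.224), and the BZP call without its first pair (-0.63, adjusted p = 0.0570). By preparation the mean difference was -0.71, -0.73, -0.69, 0.03 and -0.95 in preparations 1 to 5. Both pairs of preparation 4 were thus near 0, as was the first TFMPP pair at -0.12.

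ABCG8 is the partner subunit of that pump. Its probe set, 1369440_at, had a lower mean still, 3.00, and it was lower with drug in 12 of 12 pairs. With BZP it read 3.09, 2.93 and 4.06 in controls and 2.79, 2.83 and 3.18 in treated arrays. With MDBP it read 2.81, 3.29 and 3.63 against 2.59, 2.67 and 3.03. Both overlapped, and the high values, 4.06 and 3.63, were controls of preparation 3. With TFMPP the controls read 3.13, 3.17 and 3.09 and the treated arrays 2.98, 2.67 and 2.66, without overlap. With MeOPP the controls read 3.05, 2.97 and 2.75 and the treated arrays 2.94, 2.94 and 2.70, a gap of 0.03 to 0.11 in each pair.

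Abcg8 fell by 0.33 ± 0.06 in the mean of the drugs (limma adjusted p = 0.00115). It fell with MDBP (-0.48 ± 0.13, adjusted p = 0.0324) and BZP (-0.43 ± 0.13, adjusted p = 0.0484), and stood at -0.36 ± 0.13 with TFMPP (adjusted p = 0.233) and -0.06 ± 0.13 with MeOPP (adjusted p = 0.868). The BZP call lay close to the threshold. It was lost in 17 of 20 alternatives, at -0.49 without pair 1 of BZP (adjusted p = 0.0760) and at -0.20 without pair 3 (adjusted p = 0.468). The MDBP call was lost without pair 2 or pair 3 of MDBP (-0.41 and -0.43, adjusted p = 0.214 and 0.218).

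Across the 12 pairs the differences of Abcg5 and Abcg8 had a Pearson r of 0.06, while their levels in the 12 DMSO arrays had an r of 0.62. These are descriptions over arrays that share preparations. The r of 0.62 takes in the controls of preparation 3, pair 3 of BZP and of MDBP. They read 4.49 and 5.08 for Abcg5 and 4.06 and 3.63 for Abcg8, and no r was taken without them. With MeOPP the values were -0.64 for Abcg5 and -0.06 for Abcg8, and with TFMPP the values were -0.18 for Abcg5 and -0.36 for Abcg8. Whether these differ between the genes was not tested, and both signals lay below the median of all probe sets.

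**Figure D3:**
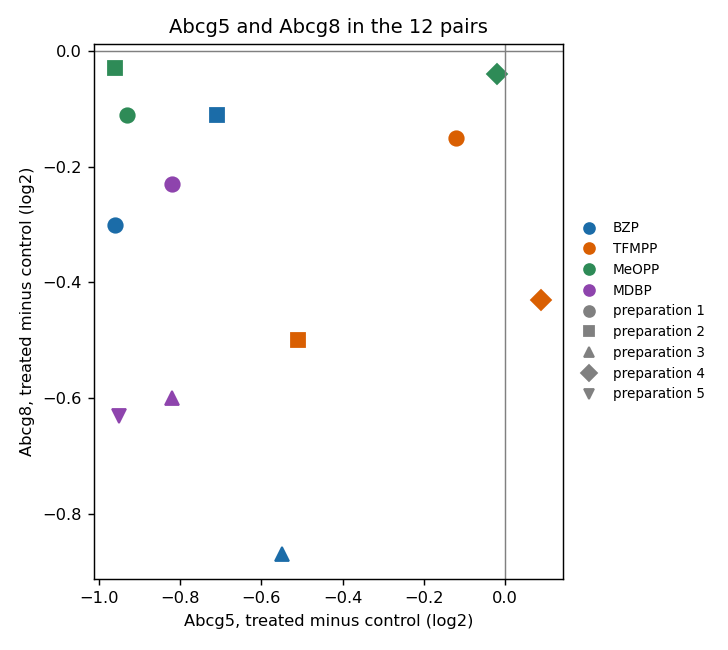
Treated minus control difference (log2) of Abcg8 against that of Abcg5 in the 12 pairs, coloured by drug, with marker shape for the inferred preparation. The points show no common trend (r = 0.06), and the MeOPP pairs lie near 0 for Abcg8 while 2 of the 3 lie near -0.9 for Abcg5.

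LXR alpha, the product of Nr1h3, is the sterol sensor among these genes. Its probe set, 1387365_at, read 8.06, 7.79 and 9.21 in the BZP controls and 7.81, 7.49 and 8.52 with BZP. With TFMPP it read 7.92, 7.97 and 7.75 in controls and 7.48, 7.84 and 7.77 in treated arrays. The groups overlapped for both drugs, and the third TFMPP pair was 0.01 higher with drug. With MeOPP the controls read 7.76, 7.55 and 7.85 and the treated arrays 7.53, 7.29 and 7.48, and with MDBP the controls read 7.66, 7.90 and 8.80 and the treated arrays 7.73, 7.46 and 8.40. MeOPP without overlap and MDBP with it were lower in 3 and 2 of their 3 pairs.

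Nr1h3 fell by 0.29 ± 0.06 in the mean of the drugs (limma adjusted p = 0.00234; lower in 10 of 12 pairs). By drug it passed with BZP alone, at -0.42 ± 0.12 (adjusted p = 0.0399), a call lost when any of the 3 BZP pairs was left out. The difference was then -0.50 without pair 1 (adjusted p = 0.0534), -0.47 without pair 2 (adjusted p = 0.0741) and -0.28 without pair 3 (adjusted p = 0.326). The others were -0.28 with MeOPP, -0.25 with MDBP and -0.19 with TFMPP (SE 0.12 each; adjusted p = 0.214, 0.256 and 0.652). The arrays of preparation 3 read 8.40 to 9.21 and the other 20 arrays 7.29 to 8.06, so the level of Nr1h3 differed more by preparation (1.03) than by drug.

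LCAT is the plasma enzyme that esterifies HDL cholesterol. Its probe set, 1367887_at, read 9.05, 9.62 and 10.50 in the BZP controls and 7.94, 8.29 and 9.53 with BZP. With TFMPP it read 8.82, 9.77 and 8.76 in controls and 7.89, 8.75 and 8.41 in treated arrays. Each pair was lower, and with TFMPP the highest treated array fell just short of the lowest control. With MeOPP the controls read 8.68, 9.52 and 8.85 and the treated arrays 7.77, 8.36 and 8.11, and with MDBP the controls read 8.60, 9.72 and 10.24 and the treated arrays 7.61, 8.28 and 9.28. The MeOPP groups did not overlap and the MDBP and BZP groups did.

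Lcat fell by 0.99 ± 0.07 in the mean of the drugs (limma adjusted p = 3.36e-08; lower in 12 of 12 pairs) and was the one gene of the 5 that passed the test with each drug. The drug values were -1.14 with BZP (adjusted p = 6.60e-05), -1.13 with MDBP (adjusted p = 9.78e-05), -0.94 with MeOPP (adjusted p = 0.000510) and -0.77 with TFMPP (adjusted p = 0.00716; SE 0.14 each). The TFMPP call was lost without its first or second pair (-0.68 and -0.64, adjusted p = 0.108 and 0.115). Preparation means ran from -0.54 in preparation 4 to -1.44 in preparation 5. An exact two-sided sign-flip test over the 12 pairs gave p = 0.000488 for Lcat, Abcg8 and the Abca1 probe set 1384381_at, the smallest it can give. It gave 0.000977 for Abca1 1383355_at, 0.00146 for Abcg5 and 0.00195 for Nr1h3, treating pairs of 1 preparation as independent.

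**Figure D4:**
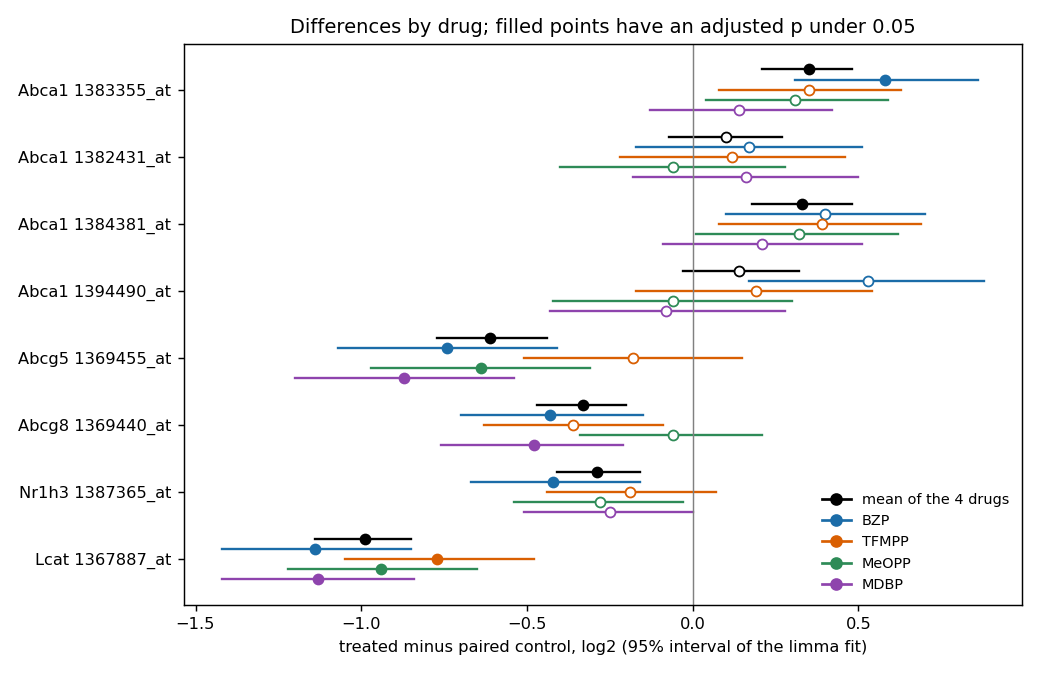
Treated minus control difference (log2, limma estimate with its 95% interval) of the 8 probe sets for the mean of the 4 drugs (black) and for each drug (colours), filled where the adjusted p is under 0.05. All 5 Lcat intervals lie below 0, and for Abca1 1383355_at the BZP point, 0.58, lies highest.

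Counted by drug, BZP had 1 of the 8 probe sets higher and 4 lower, where 4.75% and 4.48% of all probe sets were higher and lower. TFMPP had 0 higher and 1 lower (0.557% and 1.22% of all), MeOPP 0 higher and 2 lower (2.23% and 3.78%), and MDBP 0 higher and 3 lower (3.22% and 3.76%). The median difference of the 8 was -0.12, -0.03, -0.06 and -0.17 for BZP, TFMPP, MeOPP and MDBP, with medians of all probe sets within 0.01 of 0.

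Differences between the drugs were tested directly, all at their labelled EC20 and 24 h but at molar doses that differ, in 6 pairs of drugs for each of the 8 probe sets. None of the 48 passed (limma, adjusted over all probe sets; smallest adjusted p = 0.619), and 6 (12.5%) had an unadjusted p under 0.05, against 5.66% of all 186252 such tests. Over all probe sets BZP and TFMPP differed in 0.0515% and the other 5 pairs in 0%. The limma F test of equal drugs called 0%, with 1869 probe sets at an unadjusted p under 0.05. Among them was 1 of the 8, Abcg5 (limma unadjusted p = 0.0349, adjusted p = 0.797). For Abcg5 the TFMPP difference was 0.69 above that of MDBP (95% interval 0.22 to 1.15) and the BZP difference 0.56 below that of TFMPP (interval -1.02 to -0.09). The intervals in this paragraph are not adjusted for the number of tests. Pair 3 of TFMPP lay in preparation 4, where Abcg5 stood at 0.09 with TFMPP and -0.02 with MeOPP. Pair 3 of BZP and of MDBP lay in preparation 3, and pair 2 of MDBP in preparation 5. Drug and preparation therefore cannot be told apart in these Abcg5 values. BZP and MDBP share the benzyl group and differ by the methylenedioxy bridge. For Abca1 the BZP difference minus that of MDBP was 0.44 in 1383355_at (interval 0.05 to 0.83), 0.60 in 1394490_at (0.10 to 1.11), 0.19 in 1384381_at (-0.24 to 0.62) and 0.01 in 1382431_at (-0.47 to 0.49). Pair 2 of BZP lay in preparation 2, which held no MDBP pair, so drug and preparation cannot be told apart in these values. Preparation 2 had the highest mean difference in 1383355_at, 0.66. In preparations 1 and 3, which held pairs of both drugs, 1383355_at stood at 0.29 and 0.42 with BZP. With MDBP it stood there at -0.09 and 0.35. For Lcat, BZP and MDBP differed by -0.00 (interval -0.41 to 0.40), which leaves room for differences of that size either way. The phenyl drugs TFMPP and MeOPP differed in Abcg5 by 0.46 (interval -0.01 to 0.93).

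By the rule of highest Pearson r over the 12 differences, among 8608 genes, Lcat was most like Ptpdc1 (0.924), Mettl25b (0.915) and Serpind1 (0.903), the gene of heparin cofactor II. Abcg5 was most like Syndig1l (0.858), Sik3 (0.853) and Mgst1 (0.848), and Abcg8 most like Stam2 (0.932), Sobp (0.867) and Dhrs1 (0.848). Nr1h3 was most like Tmem131l (0.925), Rbfa (0.924) and Mtarc2 (0.922), and Abca1 most like Lrig1 (0.952), Khsrp (0.910) and Pak4 (0.908). These are the highest of 8608 values over 12 pairs that share preparations. How high such values run without any link was not tested, so they are descriptions. Likeness of the differences did not mean a like mean change. Serpind1 fell by 1.03 (limma adjusted p = 4.54e-06), whereas Lrig1 stood at -0.01 (adjusted p = 0.946). Over the 24 levels in place of the differences the 3 most like genes were others for every member, Tmem176a, Fah and Hsd3b5 for Lcat.

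The other genes of sterol handling were taken from 5 lists, 42 of whose 47 genes had a probe set. In the mean of the drugs 8 rose, 14 fell and 20 did not pass, where 12.5% of all probe sets were higher and 9.85% lower. Of 10 LXR partners and coregulators, 1 rose and 2 fell (median -0.01), close to those shares of all probe sets. Rxrb, an LXR partner, changed by 0.19 (limma adjusted p = 0.0329), Rxrg by -0.30 (adjusted p = 0.00228) and Hnf4a, a hepatocyte factor, by -0.23 (adjusted p = 0.00268). LXR beta, Nr1h2, stood at 0.15 (adjusted p = 0.218) and Rxra at -0.05 (adjusted p = 0.655). The Rxrb call was lost in 10 of 21 alternatives, the Rxrg call without the pair terms (adjusted p = 0.431) and the Hnf4a call with 1 value per preparation (adjusted p = 0.0604).

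Of 11 further LXR target genes, 3 rose and 3 fell (median -0.16), where 12.5% of all probe sets were higher and 9.85% lower. Srebf1, the lipogenic factor SREBP-1, rose by 0.80 ± 0.06 in 12 of 12 pairs (limma adjusted p = 1.16e-07) and passed with each drug. Scd, which makes monounsaturated fatty acids, rose by 0.67 ± 0.09 (adjusted p = 4.08e-05). Cyp7a1, whose enzyme limits the rate of bile acid synthesis, fell by 1.38 ± 0.16 (adjusted p = 8.34e-06), from -0.57 with TFMPP (adjusted p = 0.547) to -2.12 with MDBP (adjusted p = 0.000583). Smpdl3a fell by 0.56 ± 0.06 (adjusted p = 1.68e-06). The efflux gene Abcg1 stood at -0.19 (adjusted p = 0.132). Without the pair terms Srebf1 still passed (adjusted p = 0.00152), and Cyp7a1 and Scd did not (adjusted p = 0.186 and 0.567).

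Of 8 HDL genes none rose and 5 fell (median -0.40), where 12.5% of all probe sets were higher and 9.85% lower. Apoa2, an HDL apolipoprotein, fell by 0.79 ± 0.07 (limma adjusted p = 3.02e-07), Apom by 0.75 ± 0.09 (adjusted p = 9.14e-06), Pon1, an HDL-bound esterase, by 0.58 ± 0.06 (adjusted p = 6.38e-06) and Apoc1 by 0.52 ± 0.08 (adjusted p = 0.000127). Apoa1, the partner of ABCA1, stood at -0.11 (adjusted p = 0.0761), and Scarb1, the HDL receptor, at 0.02 (adjusted p = 0.878). Without the pair terms Apoa2, Apom, Pon1 and Apoc1 did not pass (adjusted p = 0.0795, 0.167, 0.260 and 0.365).

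Of 6 genes of cholesterol esters and lysosomal sterol exit, 4 rose and 1 fell (median 0.39). The shares of all probe sets, here and for the oxysterol genes below, were 12.5% higher and 9.85% lower. Soat1, which esterifies cholesterol in the cell, rose by 0.75 ± 0.08 (limma adjusted p = 6.43e-06), Npc2, the lysosomal cholesterol carrier, by 0.68 ± 0.04 (adjusted p = 1.85e-08) and Stard3, a late endosomal sterol-binding protein, by 0.40 ± 0.05 (adjusted p = 2.65e-05). Ces1d, a carboxylesterase, fell by 1.44 ± 0.08 (adjusted p = 2.84e-09). Of 7 genes of oxysterol formation and breakdown none rose and 3 fell (median -0.07). These were Cyp39a1 (-0.66 ± 0.05, adjusted p = 2.26e-07), Cyp7b1 (-0.64 ± 0.08, adjusted p = 2.19e-05) and Cyp27a1, a mitochondrial sterol hydroxylase (-0.18 ± 0.06, adjusted p = 0.0394). The Cyp7b1 probe set had a mean level of 2.40, below the median of all probe sets (4.48) and below that of Abcg8, so its signal was weak. The Cyp27a1 call was lost in 13 of 21 alternatives and the Soat1 call without the pair terms (adjusted p = 0.110).

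**Figure D5:**
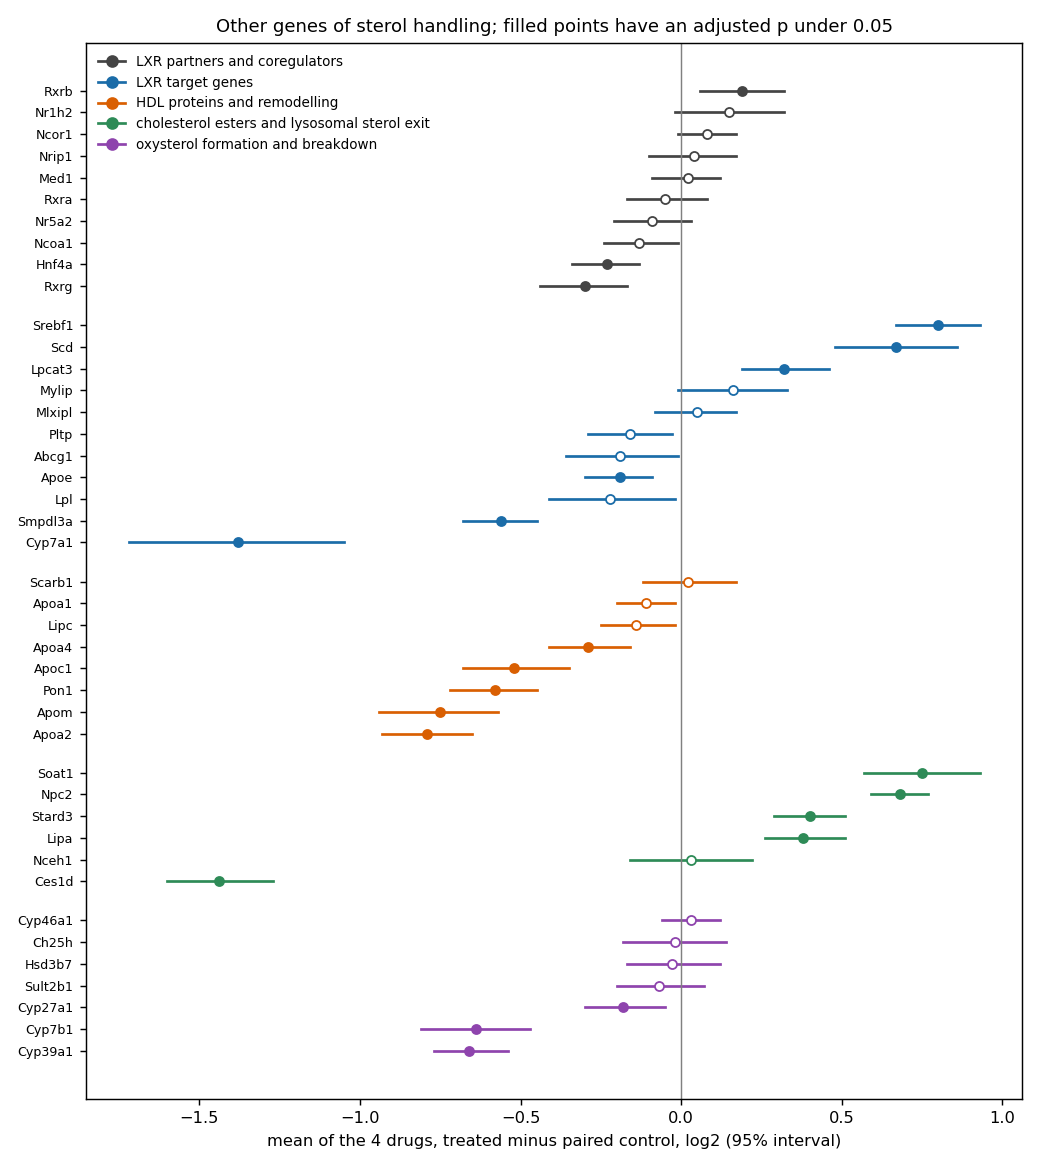
Mean treated minus control difference over the 4 drugs (log2, with 95% interval) for the genes of the 5 lists, with filled markers for an adjusted p under 0.05. The HDL genes that passed lie below 0, and of the 5 ester and lysosome genes that passed, 4 lie above it.

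Hepatocyte markers are given beside the falls in Lcat, Abcg5 and Abcg8. Of 6, 4 fell in the mean of the drugs, Apob by 1.02, Cps1 by 0.37, Ttr by 0.24 and Hnf4a by 0.23. Alb stood at -0.01 and Serpina1 at -0.09 (limma adjusted p = 0.874 and 0.156). Over all probe sets 9.85% were lower. The summed level of the 6 markers was 44178 to 52392 in controls and 38658 to 49707 in treated arrays and was higher with drug in 0 of 12 pairs. Of the stellate cell markers 1 of 7 fell, and of the endothelial and cholangiocyte markers 0 of 4 and 0 of 5 passed. Their part in these results was not tested.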

How the data were processed

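The 24 arrays hybridised biotin-labelled cRNA made from 100 ng of total RNA, per the labels. The authors deposited log2 expression values made with RMA, per the submitters' processing notes, which background-corrects, quantile-normalises and summarises probes. Its version was not stated. RMA forces like distributions on all arrays, so a shift of most genes would not show, and it compresses changes of dim probe sets. The precision is limited by the number of arrays.

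The table holds 31099 probe sets, 57 of them Affymetrix control features that were dropped. The platform annotation gave 20826 of the tested probe sets 1 symbol, 436 several and 9780 none. limma 3.58.1 in R 4.3.3 fitted 12 pair terms and 4 drug terms to all 24 arrays (8 residual degrees of freedom, prior 7.66), two-sided, with Benjamini-Hochberg adjustment over 31042 probe sets and calls at an adjusted p under 0.05. Pairing came from the control titles, and deviations within pairs correlated at 0.612 to 0.802. The fit was tested on simulated data with independent noise in each array, which cannot show how pairs that share a preparation affect it. The text names all members, up to 4 called genes of each list by largest moderated t and the 3 genes most like each member; other genes named were chosen after their values were seen. A list gene stands for its probe set with the highest mean. Members and lists were chosen with earlier results of these data known. Alternatives changed the pair terms, the controls, the arrays fitted, the normalisation, the filter at a mean of 5 and single pairs. Promoters came from RefSeq (GRCr8).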

Additional observations from a re-analysis of the deposited data

How the results depend on the processing

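The pair terms mattered most. With no replicate block, or with all DMSO arrays joined as 1 control group, the count of the 8 probe sets called in the mean of the drugs went from 6 to 2 and 2, and the calls of each drug from 5 (BZP), 1 (TFMPP), 2 (MeOPP) and 3 (MDBP) to 0. Abcg5 and Lcat kept their calls in the mean without the block (adjusted p = 0.00811 and 0.0199). Called list genes went from 22 to 9 under both. With 1 value per inferred preparation, 6 of the 8 probe sets and 18 list genes were called in the mean. The share of all probe sets called was not taken under any alternative. The counts therefore do not show whether these genes lost calls more often than other genes. Fitting each drug on its own arrays gave 2 for BZP, 2 for TFMPP and 1 for MeOPP. The filter at a mean of 5, which drops Abcg5 and Abcg8, gave 1 for MeOPP and 1 for MDBP. Chosen after the data were seen, leaving out preparation 3 or preparation 4 gave 3 and 3 for BZP. Leaving out 1 pair at a time gave 6 to 6 for the mean, 3 to 5 for BZP, 0 to 1 for TFMPP, 1 to 2 for MeOPP, 2 to 3 for MDBP, 20 to 23 list genes and 0 differences between drugs. Signs turned only in the Abca1 probe sets that were not called. For 1382431_at, joined controls gave -0.30 with BZP, 0.39 with MeOPP and -0.18 with MDBP. Leaving out 1 pair gave -0.04 to 0.41 for BZP, up to 0.01 for MeOPP and -0.09 to 0.30 for MDBP. Without preparation 4 or 3 it stood at 0.01 with MeOPP and -0.09 with MDBP. For 1394490_at, joined controls gave 0.44 with MeOPP. Leaving out 1 pair gave -0.29 to 0.08 for MeOPP and -0.14 to 0.03 for MDBP, and without preparation 4 or 3 these stood at 0.03 and 0.03. The cause was not tested. Weak signal limits Abcg5 and Abcg8, whose means lie below the median of all probe sets.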
